A study of Caenorhabditis elegans with 2 samples.

Results

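On the X chromosome of Caenorhabditis elegans, 1786 of the 5332 ChIP-seq calls for the tagged protein F10B5.3 had their summit inside a protein-coding gene and away from promoters. They were taken from the deposited list of 30000 calls made on the pooled replicates, which was deposited as peaks together with background and so holds weak calls as well as strong ones. Of the X calls, 3116 (58.4%) had a summit inside the span of a protein-coding gene, 1841 (34.5%) also lay more than 1000 bp from every protein-coding transcription start site (TSS), and 1786 (33.5%) also lay more than 200 bp from every tRNA, snoRNA and snRNA gene. The choice used positions alone and no signal value. The same distances on chromosomes I to V gave 8572 autosomal calls, which serve below as the comparison.

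The worms were hermaphrodites of strain OP529, unc-119(tm4063) III; wgIs529, which carries an integrated transgene for F10B5.3 with GFP and FLAG at its C terminus. They were L4 larvae, collected as whole organisms 48 h after synchronization as starved L1 larvae, and chromatin was precipitated with an antibody to GFP. The study had 2 biological replicates of this 1 group, so no condition was compared, and all tissues of the animal were mixed in each sample. Every value therefore describes the tagged protein in 1 transgenic strain, and the control alignment named in the labels was not analysed here.

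RefSeq annotates F10B5.3, also named btbz-2, as a protein with a BTB domain, through which many chromatin proteins pair with each other. The C. elegans X chromosome is the target of dosage compensation: in hermaphrodites a condensin-containing complex loads onto the X chromosomes at recruitment sites and spreads along them, lowering transcription. Those recruitment sites carry copies of a sequence motif named MEX. Introns and other gene-body sequence in worms can also hold enhancers and promoters of unannotated transcripts. None of this was measured in the deposited lists, which hold positions and call strengths only.

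The sequences at the 3 strongest regions are shown because all of them held the same word of 8 bases, GCGCAGGG, which is written in capitals. It extends by 1 base the core of MEX that was searched, and the extension was chosen after these sequences had been seen. Each window of 30 bases is given 5′ to 3′ from the RefSeq copy of the WBcel235 genome (ce11), on the minus strand for Y41G9A.17 and on the plus strand for mom-1 and pks-1.
Y41G9A.17 intron, X:2997112-2997141: ttaaatttatcGCGCAGGGaggaagtagcc
Y41G9A.17 intron, X:2997287-2997316: gagatcgtatcGCGCAGGGaggaagtatgg
mom-1 intron, X:6296537-6296566: atttacatttgGCGCAGGGggtcaccatag
mom-1 intron, X:6296565-6296594: agataggtatcGCGCAGGGaagatttaccg
pks-1 coding exon, X:5429579-5429608: cattaaatttaGCGCAGGGaggacgccgtt
The 2 copies in Y41G9A.17 began 175 bp apart and shared a run of 20 bases around the word. The first of them shared 12 bases with the copy in pks-1 and 13 bases with the second copy in mom-1. The 2 copies in mom-1 began 28 bp apart and shared the 8 bases of the word alone.

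The summits themselves are shown for the 8 strongest calls and then for the 2 next strongest in coding exons, with the summit base in capitals and all on the plus strand of the same genome, so that the strongest and the weaker calls can be compared.
Y41G9A.17 intron, strongest summit, X:2997090-2997119: tggtacatcattttaTccacagggctactt
mom-1 intron, X:6296569-6296598: aggtatcgcgcagggAagatttaccgcctt
pks-1 coding exon, X:5429533-5429562: ttatccaagagactcAtctcgtgtcccttc
T04C10.3 intron, X:14813537-14813566: ttctccacatgtagtTacttgtttctcgtg
Y41G9A.17 intron, weaker summit, X:2997299-2997328: cctgcgcgatacgatCtctatcgacttttc
ldb-1 intron, X:11031389-11031418: gagaggagagacaggCacccggctgtcgac
abts-4 intron, X:6750275-6750304: gacccacgtgtgggtGcgtccgtccgcaca
F09A5.3 intron, X:13145339-13145368: tcgtcgggcatcgatCtctgcatcacgtga
T04C10.3 coding exon, X:14813739-14813768: gatttattgcaggatTtctttcaaaaacgg
let-2 coding exon, X:16386813-16386842: actcacgtggtcccgGtggacctggtggtc
The windows of abts-4, F09A5.3 and let-2 each held CACGTG, a palindrome known as an E-box. Among these summit windows only that of mom-1 held the whole word GCGCAGGG. In Y41G9A.17 and pks-1 the copies shown above lay outside the summit windows or were cut at their edge. The windows of T04C10.3, ldb-1, abts-4, F09A5.3 and let-2 did not hold the word either. That of let-2 belongs to the strongest call that overlapped no peak of the thresholded list described below.

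The 3 strongest calls stood far above the rest. The highest had a signal of 841.1 with its summit at X:2997105 (call X:2996826-2997419), in intron 6 of Y41G9A.17, a gene to which no role is given here. It was found at 349.6 in the list of replicate 1 and at 496.0 in that of replicate 2. The signal is the strength the authors' peak caller gave each call, on a scale that the sources used here do not define, and each list has its own scale.

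The second call, with its summit at X:6296584 (call X:6296300-6296813), had a signal of 809.2 and lay in intron 7 of mom-1, the Porcupine homologue that acylates Wnt ligands before their secretion. Its replicate values were 330.2 and 483.2. The third, with its summit at X:5429548 (call X:5429278-5429825), had a signal of 772.5 and lay in a coding exon of pks-1, a very large polyketide synthase gene. Its replicate values were 303.6 and 467.5, and its nearest TSS, that of C41A3.2, was 15198 bp away, the longest such distance of all 1786 calls. All 3 were among the 10 strongest nuclear calls of the pooled list, and each replicate list alone placed a summit within 16 bp of the pooled one.

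A gap of 3.11-fold in signal separated the third call from the fourth, which lay in an intron of T04C10.3 with its summit at X:14813552 and a signal of 248.3. The replicate values of that call were 109.5 and 133.6. The fifth was a second summit in the same intron of Y41G9A.17, at X:2997314, with a signal of 231.3 and replicate values of 136.5 and 131.0. These 5 calls were the only ones above a signal of 200, against 2 of the 8572 autosomal calls, and 3 calls on X against 0 on the autosomes were above 400. The strongest autosomal call chosen by the same distances, in an intron of ppfr-1, had a signal of 349.7, and the next, in an intron of pqn-41, had 221.6. The map of the 3 strongest regions shows how close the word lies to each summit.

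**Figure D1:**
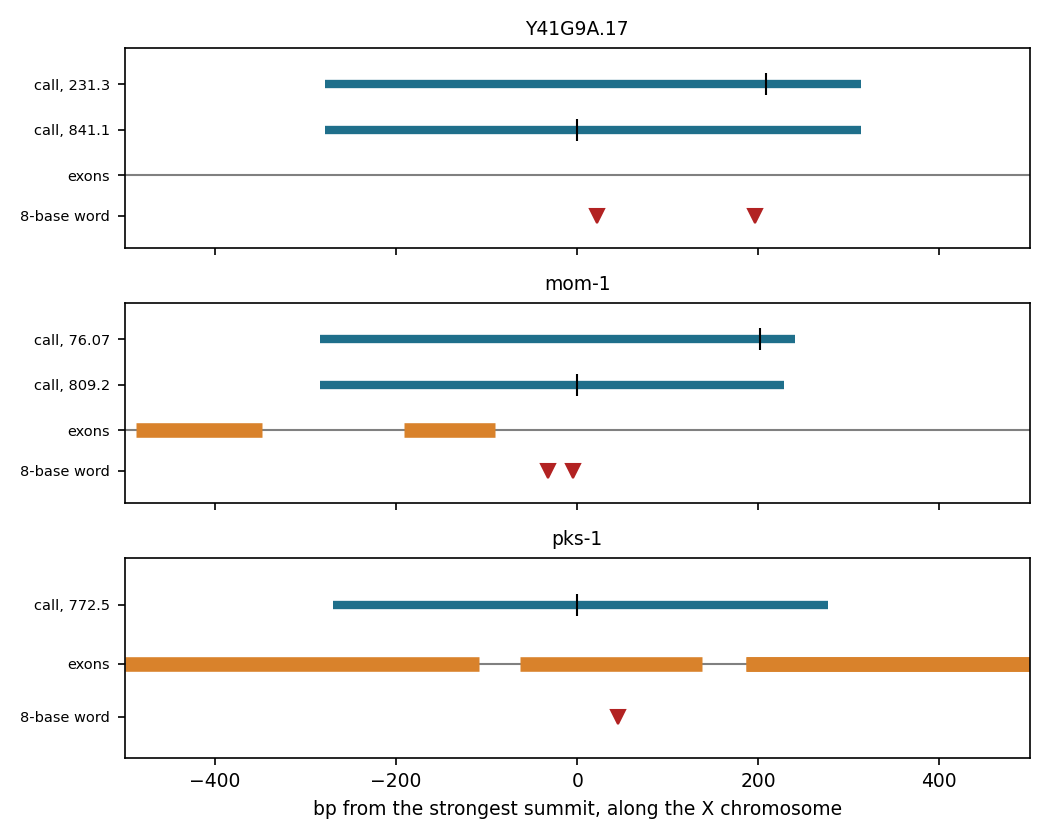
Map of the 3 strongest regions, Y41G9A.17, mom-1 and pks-1, with distance from the summit of the strongest call in bp on the horizontal axis. Bars mark the calls and the annotated exons, and marks show the copies of the 8-base word, which lie at 22 and 196 bp in Y41G9A.17, at -32 and -4 bp in mom-1 and at 46 bp in pks-1.

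Most of the other calls were weak. The median signal of the 1786 calls was 27.43, with quartiles of 22.49 and 35.15, and 1683 of them (94.2%) were below 50. The authors' second list holds the calls that passed a threshold on the irreproducible discovery rate (IDR), a measure of how well the ranks of calls repeat between replicates. Each of them is also in the pooled list with the same ends and summit, and together they are exactly its strongest calls: the lowest had a signal of 86.47 and the highest call left out had 86.44. Membership of that list is therefore a position above a level of the pooled signal, and not a separate measurement.

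A call is named "called" below where it overlapped a thresholded peak by at least 1 bp, and "thresholded" where it was such a peak itself. On X, 25 of the 1786 calls inside genes and away from promoters were called, which is 1.40% (95% Wilson interval 0.950 to 2.06), against 3.94% of all 30000 pooled calls. The thresholded ones numbered 17 (0.952%, 0.595 to 1.52), against 2.87% of all pooled calls. Both shares were below the background, and the called share was also below the 5.70% of all 5332 X calls that were called. The 17 made up 7.91% of the 215 thresholded peaks on X. With each replicate list in place of the pooled one, and as many of its strongest calls taken as called as the thresholded list holds, the share was 2.37% in replicate 1 and 1.32% in replicate 2. The intervals cover counting error only, because calls are not replicates and the read depth behind them is unknown.

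The 25 called members formed 16 separate regions in 15 genes. The regions counted several times were those in which neighbouring calls overlapped, as at abts-4, a gene of the anion and bicarbonate transporter family, which held 4 called members, 2 of them thresholded. The strongest summit there, at X:6750290, had a signal of 165.2 and replicate values of 72.35 and 91.50. The other thresholded one, at X:6748073, had 104.5, with 56.84 and 46.84. A second gene of that family, abts-2, held a thresholded call of 108.3 at X:11588681, with 44.46 and 75.96. All 3 lay in introns.

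Among the other hosts, the gene ldb-1, which encodes the cofactor that binds LIM domains, held a call with a signal of 181.0 at X:11031404, and its replicate values were 83.96 and 98.81. The insulin-pathway kinase gene pdk-1 held one of 94.24 at X:1323190, with replicate values of 60.93 and 38.09. The casein kinase gene kin-20, a homologue of the fly clock kinase Doubletime, held one of 101.4 at X:15275279, with 41.86 and 65.74. In each of these 3 genes the thresholded call lay in an intron and was found by both replicates.

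Other hosts are known mainly from relatives in other species. For inso-1, a homologue of the fly sleep gene insomniac, the signal was 124.8 at X:1302458, with replicate values of 82.43 and 53.36. For gid-2, named after a yeast ubiquitin ligase, it was 101.3 at X:2433842, with 30.69 and 69.40. These 2 differed in which replicate list gave the higher value.

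No role is given here for the remaining hosts of thresholded calls. The signal was 128.5 in F09A5.3 (summit X:13145354), 116.9 at a second summit of T04C10.3 (X:14813754, in a coding exon), 91.71 in T18D3.9 (X:12452363) and 88.58 in M03F4.6 (X:4964791). Their values ran from 42.07 in T18D3.9 to 53.22 in F09A5.3 in replicate 1 and from 38.65 in M03F4.6 to 75.24 in F09A5.3 in replicate 2. The call in M03F4.6 was the weakest thresholded call inside a gene and away from promoters. The 8 called members that only overlapped a thresholded peak had signals between 23.01 in abts-4 and 82.03 in kin-20, and they lay in kin-20, abts-2, mom-1, M02D8.7, abts-4 (2 calls), gid-2 and M03F4.6. The sequence at the summit of the kin-20 call repeated elsewhere in the genome over 31 bases.

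The strongest member that was not called lay in a coding exon. In let-2, which encodes a type IV collagen chain of basement membranes, the signal was 80.14 at X:16386828, with replicate values of 31.05 and 49.28. It was found by both replicates. Its replicate 2 value was above the 38.09 of the thresholded call in pdk-1, and its replicate 1 value was below the 60.93 of that call.

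Introns held most of the called members. Of the 1786 calls, 924 (51.7%) had their summit in an intron, 679 (38.0%) in a coding exon and 177 (9.91%) in an untranslated region (UTR), of which 172 were 3′ UTR and 5 were 5′ UTR. Another 6 lay inside a gene's span but in no such class of any transcript. Called members made up 21 of 924 intron calls (2.27%, 1.49 to 3.45), 4 of 679 coding exon calls (0.589%, 0.229 to 1.505), 0 of 177 UTR calls and 0 of the remaining 6. For 0 of 177 the Wilson interval reached 2.12%, and 3 counts of 177 would be 1.69%.

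The odds of being called were 3.92 times as high for intron calls as for coding exon calls (95% interval 1.34 to 11.5). This interval treats overlapping calls as separate, although called coding exon calls in T04C10.3 and abts-2 overlapped called intron calls of the same genes. With overlapping calls merged the ratio was 5.11 (1.16 to 22.6). Among thresholded calls the ratio was 5.59 (1.27 to 24.5), from 15 of 924 intron calls and 2 of 679 coding exon calls. The ratio rested in part on replicate 1: taken in the same way from the list of replicate 2 alone it was 1.19 (0.494 to 2.84), and from that of replicate 1 alone it was 3.22 (1.31 to 7.91). The interval also held 1 at a TSS distance of 2000 bp (4.28, 0.952 to 19.2) and with the stronger 50% of the thresholded peaks (3.70, 0.809 to 17.0). Intron over UTR calls gave 8.45 (0.509 to 140), an interval that holds 1.

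Base composition differed between the classes, with a median GC content within 50 bp of the summit of 33.7% for intron calls and 44.6% for coding exon calls. Within 3 groups of GC content, divided at 33.7% and 43.6%, the ratio of intron to coding exon odds was 0.446 (0.0490 to 4.07) in calls with the lowest GC, 8.08 (0.987 to 66.1) in the middle and 9.07 (1.97 to 41.8) in calls with the highest. The lowest of these groups held only 54 coding exon calls, 1 of them called, so its direction is poorly determined. The part of GC content in the difference between classes was not tested further.

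The typical call was of about the same strength in each class. The median signal was 27.45 for intron calls (quartiles 22.60 and 35.09), 27.16 for coding exon calls (22.35 and 35.02) and 28.62 for UTR calls (22.62 and 36.47). The highest signals were 841.1, 772.5 and 69.37. A signal above 50 was reached by 67 of 924 intron calls, 28 of 679 coding exon calls and 7 of 177 UTR calls, and the 90th percentiles were 46.79, 42.50 and 45.37.

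**Figure D2:**
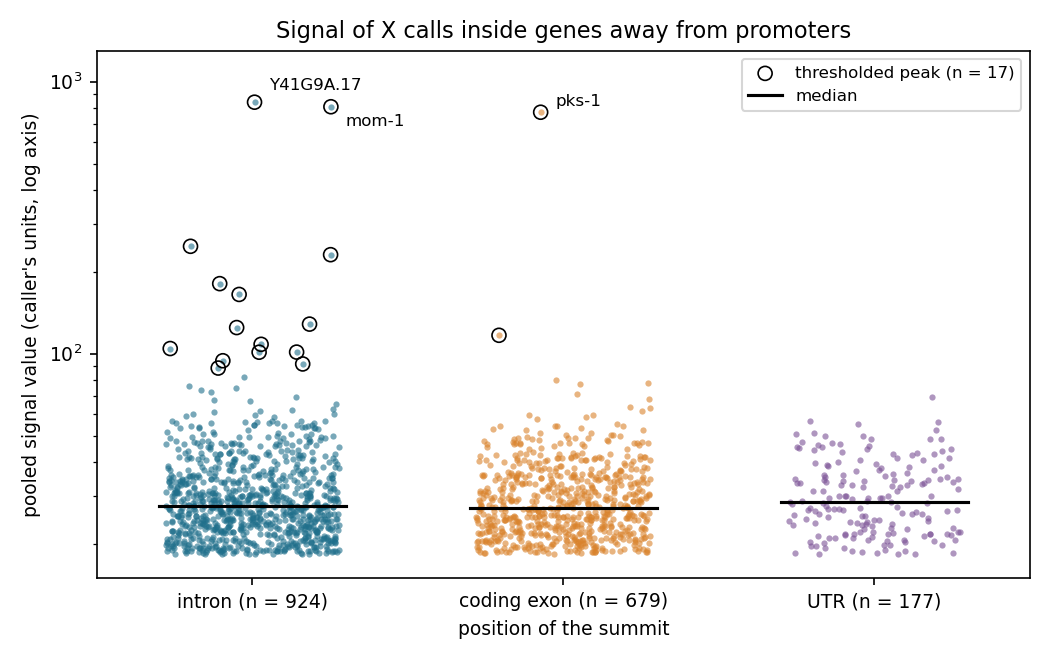
Signal of each of the calls on a log axis, by the class of the summit (intron, coding exon, UTR), with thresholded peaks circled and the median of each class marked. The medians are 27.45, 27.16 and 28.62, and the highest calls, up to 841.1, lie in introns and 1 coding exon.

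Relative to the sequence that the distances left eligible, weak and strong calls together were about as dense in introns as in coding exons. Introns held 28.1 calls per 100 kb of 3283.08 kb, coding exons 31.4 per 100 kb of 2162.13 kb and UTRs 38.4 per 100 kb of 460.628 kb. Called members were denser in introns, at 6.40 per Mb, than in coding exons, at 1.85 per Mb. UTR calls were the densest of the 3 classes, and none of them was called.

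In 3′ UTRs the strongest call, in the salt-inducible kinase gene kin-29, had a signal of 69.37, with replicate values of 37.95 and 27.52. Those of dmd-4, which encodes a transcription factor with a DM domain, and pab-2, which encodes a poly(A)-binding protein, were 56.66 and 56.29. That of aak-2, the catalytic subunit gene of AMP-activated kinase, was 55.06 and had no replicate 1 summit within 100 bp, and that of C04E7.3 was 52.45. All 5 were below the lowest thresholded signal of 86.47.

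The 5 calls in 5′ UTRs were weaker still. They had signals of 32.99 in F47B10.8, 28.01 in F55A4.3, 25.90 in sto-2, which encodes a stomatin, 24.56 in R193.6 and 22.02 in C01C4.3. The choice required a distance from start sites, at which 5′ UTRs begin. Eligible 5′ UTR sequence was not measured separately, so the reason for the few calls there was not tested.

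Support from both replicates grew with the pooled signal. A summit within 100 bp was found in the list of replicate 1 for 772 of the 1786 calls (43.2%), in that of replicate 2 for 983 (55.0%), in both for 342 (19.1%, 17.4 to 21.04) and in neither for 373 (20.9%). By rank of pooled signal, both lists held all 20 of the strongest calls, 71.2% of those ranked 21 to 100, 46.5% of those ranked 101 to 500 and 6.14% of the remaining 1286. The pooled list was made from the same reads as the replicate lists, so this is a description and not an independent check.

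All 17 thresholded calls had a summit in both replicate lists, as did 21 of the 25 called and 321 of the 1761 uncalled members (18.2%). Of those 17, 12 were also among as many of the strongest calls of each replicate list as the thresholded list holds. Intron calls had support in both lists in 20.8% of cases, coding exon calls in 17.2% and UTR calls in 16.9%. The ratio of the replicate 2 value to the replicate 1 value ran from 0.625 in pdk-1 to 2.26 in gid-2 among the 17, with a median of 1.26, and 12 of the 17 had the higher value in replicate 2. The 2 lists were not scaled to each other, so that count does not order the replicates.

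**Figure D3:**
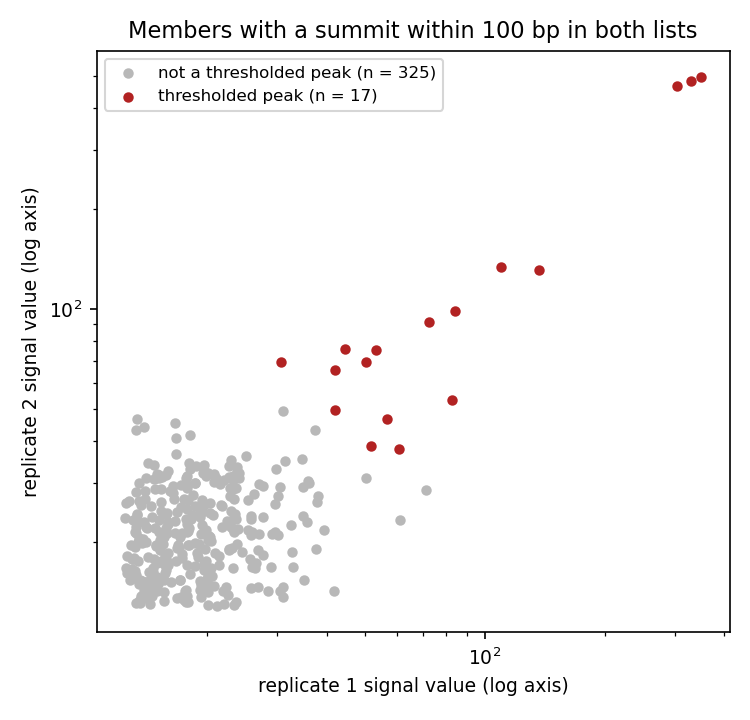
Signal in the list of replicate 2 against signal in that of replicate 1, both on log axes, for the 342 calls with a summit within 100 bp in both lists. The 3 strongest, in Y41G9A.17, mom-1 and pks-1, lie apart at 303.6 to 349.6 in replicate 1 and 467.5 to 496.0 in replicate 2.

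Compared with the same kind of calls on the autosomes, those on X were called more often in introns, a difference that did not hold under every setting. A higher called share was not particular to such calls. Of X calls of every kind, 304 of 5332 (5.70%) were called, against 3.94% of all 30000 pooled calls. Over all classes the shares were 1.40% on X and 1.01% on the autosomes (25 of 1786 and 87 of 8572), with an odds ratio of 1.38 (0.885 to 2.17), an interval that holds 1. With the thresholded list cut to the stronger 50% of its peaks the ratio was 2.75 (1.35 to 5.61), which leaves out 1. In introns they were 2.27% on X and 1.19% on the autosomes, with an odds ratio of 1.93 (1.15 to 3.21). That interval came to hold 1 when the 3 strongest regions were left out (1.56, 0.898 to 2.71), when overlapping calls were merged (1.76, 0.949 to 3.27), when the TSS distance was 500 bp (1.37, 0.849 to 2.20) and in the list of replicate 2 alone (1.49, 0.806 to 2.74).

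In coding exons the shares were 0.589% on X and 0.552% on the autosomes, with an odds ratio of 1.07 (0.362 to 3.15). In UTRs they were 0 of 177 on X and 14 of 741 (1.89%, 1.13 to 3.15) on the autosomes, with an odds ratio of 0.141 (0.00839 to 2.38). At these counts a difference was not detectable in either class. The odds of being called were higher in introns than in coding exons on both, with ratios of 3.92 on X and 2.17 (1.28 to 3.68) on the autosomes, and the difference between these ratios was not tested.

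**Figure D4:**
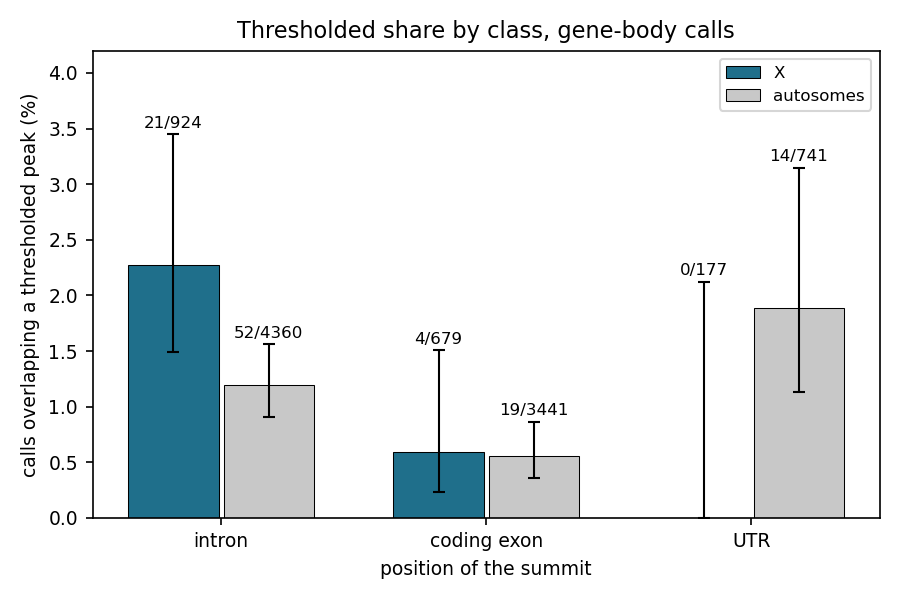
Share of calls that overlapped a thresholded peak, in percent, by class, with the X chromosome left of the autosomes and 95% Wilson intervals as bars. Intron calls stand at 2.27% on X and 1.19% on the autosomes, coding exon calls at 0.589% and 0.552%, and UTR calls at 0% and 1.89%.

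A word from the MEX motif was found at the strongest called members and at few other members. The core of MEX, GCGCAGG, was searched on both strands within 50 bp of each summit. It was present at 4 of 25 called members (16%, 6.40 to 34.7) and at 3 of 1761 uncalled ones (0.170%, 0.0580 to 0.4997). Among the autosomal calls of the same kind it was present at 16 of 8572 (0.187%), and at 1 of the 87 that were called (1.15%, 0.203 to 6.23). Among all nuclear calls of the pooled list it was present at 106 of 29977 (0.354%). Over all members it was present at 7 of 1786 (0.392%, 0.190 to 0.807), against 20 of 2216 X calls outside protein-coding genes (0.903%, 0.585 to 1.39), so the word was not particular to calls inside genes.

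The 4 called members with this word were both summits in Y41G9A.17 and the strongest summits of mom-1 and pks-1. They came from 3 of the 16 regions that the called members formed, and the intervals given for words count overlapping calls separately. The 3 uncalled ones were weak, at 34.89 in sec-16A.2, 32.21 in unc-2, which encodes a calcium channel subunit, and 23.46 in R07E3.7. A match to a word of this length is a description and not a site of binding.

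The longer word GCGCAGGG was present at the same 4 called members and at 1 uncalled one, in R07E3.7, against 1 of the 8572 autosomal calls. It was present at 5 of all 1786 members (0.280%) and at 14 of 2216 X calls outside genes (0.632%). Over the whole pooled list it was near the summit of 22 of 5332 X calls, 14 of which were called, and of 10 of 24645 autosomal calls, 1 of which was called. Of all X calls 5.70% were called, and of all pooled calls 3.94%. The counts with the word include the calls after which it was chosen, and overlapping calls are counted separately. Most copies of the word inside genes had no summit of an eligible call within 50 bp. A copy further from a summit can still lie inside a call, which was not counted. The eligible gene-body sequence held 22 copies on X (3.73 per Mb), of which 6 lay within 50 bp of a summit, 5 of them thresholded. On the autosomes it held 61 copies (2.14 per Mb), of which 1 lay within 50 bp of a summit and 0 of a thresholded one. The 5 copies at thresholded summits are those printed above, and the longer word was chosen after they had been seen. The difference from the autosomes was therefore set in part by that choice and is not a test.

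The other words that were searched differed less. The E-box CACGTG was present at 3 of 25 called members (12.0%, 4.17 to 29.96), in T04C10.3, abts-4 and F09A5.3, and at 34 of 1761 uncalled ones (1.93%, 1.38 to 2.69). The repeat CACACA was present at 6 called members (24.0%, 11.5 to 43.4), 2 of them in abts-4, and at 80 uncalled ones (4.54%, 3.67 to 5.62). Among all nuclear calls the E-box was at 2.23% and CACACA at 5.86%. At the 87 called autosomal calls the E-box was at 5.75% (2.48 to 12.8) and CACACA at 11.5% (6.4 to 19.9). Both intervals overlap those of the called members on X.

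Runs of TTTTTT were present at 3 called members (12.0%, 4.17 to 29.96) and 528 uncalled ones (29.98%, 27.9 to 32.2). For GAGAGA the counts were 2 and 87, for GATAA 3 and 367, for GTTCGA 1 and 59, for TGACTCA 0 and 23, and for TTGGC 7 and 338. For TTTTTT and these 5 words the shares of called and uncalled members had intervals that overlapped. Words of different base composition are not equally likely in windows of different GC content, whose median was 41.6% for called and 38.6% for uncalled members.

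Called members lay between 21.3% and 94.6% of the way along their genes. When host genes were divided into 3 equal parts from start to end, 5 of 315 calls (1.59%), 6 of 613 (0.979%) and 14 of 858 (1.63%) were called. By distance from the nearest TSS, 11 of 766 calls (1.44%) were called up to 2000 bp, 9 of 745 (1.21%) up to 4000 bp, 3 of 249 (1.20%) up to 8000 bp and 2 of 26 (7.69%, 2.14 to 24.1) beyond. The last group held pks-1 and an overlapping call in abts-4.

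Called intron members lay in introns with a median length of 1480 bp, against 933 bp for uncalled ones. The first intron held 4 of 21 called and 136 of 903 uncalled intron members (15.1%), against 22 of 52 called autosomal intron calls (42.3%). Another annotated non-coding gene lay within 200 bp of 4 called members (16%) and of 96 of all 1786 (5.38%). Sequence of 31 bases that repeats in the genome lay at 74 of the 1786 (4.14%) and at 1 called member.

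The 1786 calls were spread over 813 genes, which is 38.0% of the 2142 protein-coding X genes with any eligible sequence. Of these, 410 held 1 call, 330 held 2 to 4 and 73 held 5 or more, and 27 calls lay in more than 1 gene. Of the genes with the most calls, 8 were looked at, the last of them, gap-2 with 12 calls, tied with sax-3 and nhr-27. None of the 8 held a called member, against 1.40% of all 1786 calls. At that share few called members would fall among their calls, so this is not a result about genes with many calls. The 8 were led by mbl-1, the muscleblind splicing factor gene, with 22 calls over 31.7 kb and a highest signal of 47.86. Next was ajm-1, an apical junction gene, with 19 calls over 30.7 kb and a highest signal of 59.16. The non-muscle myosin gene nmy-1 held 13 calls over 8.52 kb, the highest number per length among these genes. The heterochronic gene lin-14 held 18 calls over 20.3 kb, the strongest at 69.29. The gene pks-1 held 1 call in 28.2 kb.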

How the data were processed

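F10B5.3-GFP ChIP-seq was done on 2 biological replicates of whole L4 worms. Per the notes deposited with the files, the lists are peaks and background made as input for IDR and a list thresholded on IDR, on ce11; the 2 replicates were pooled for the list of 30000 calls. The deposited signal value of each call and its summit offset were used; the deposited −log10 q-value column was read and not analysed. Aligner, peak caller and their versions, and the scale of the signal, are not given in the sources used here. No read counts were given, so depth is unknown. Lists on ce10 were not used.

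Summits were annotated with Ensembl WBcel235 release 115 in the order coding exon, 5′ UTR, 3′ UTR, intron, over all transcripts of protein-coding genes. Thresholded overlap needed 1 bp. Replicate summits were matched within 100 bp, and words were searched in windows of 101 bp. Shares have 95% Wilson intervals; odds ratios have 95% normal intervals on the log scale, with 0.5 added to each cell where a cell was 0. No p-value was computed. The class rule was checked on 1 made-up transcript, and the odds ratio interval on simulated independent calls. Overlap between calls was not simulated, so that check does not cover it. Named genes were the 20 strongest calls, the 5 strongest in coding exons, 5′ UTRs and 3′ UTRs, hosts with 3 or more called members and the strongest called hosts of set name families; the other called members, autosomal calls, holders of words and hosts with many calls were named after their values were seen. 1 coding exon call named by this rule is not reported here. Alternatives changed the TSS and small RNA distances, the order of classes, the definition of called, merging, repeats, the matching distance and the replicate. The calls, lists and words were chosen with earlier results of these data known. Python 3.11.15, pandas 2.3.3, numpy 2.4.6 and matplotlib 3.10.9 were used.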

Additional observations from a re-analysis of the deposited data

How the results depend on the processing

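Of 156 alternative values, 135 kept their direction and their side of the threshold or stayed within the main interval, and no odds ratio reversed. That tally is not a measure of robustness. It includes settings that could not change a result, such as the definition of called for the number of calls and for the medians of signal. Requiring a summit within 50 bp of a thresholded one, or that the call be a thresholded peak itself, gave 17 called members each. A TSS distance of 2000 bp left 1020 calls (1786 at 1000 bp), and the ratio of intron to coding exon odds was then 4.28 (0.952 to 19.2). With the thresholded list cut to the stronger 50% of its peaks, the called share was 0.672% over all calls and 1.08% in introns, the intron to coding exon ratio was 3.70 (0.809 to 17.0), and the X to autosome ratio was 2.75 (1.35 to 5.61), which then left out 1. The X to autosome ratio in introns was 1.37 at a TSS distance of 500 bp, 1.76 with overlapping calls merged and 1.56 without the 3 strongest regions, and each interval held 1. A matching distance of 50 bp gave 11.6% of calls with a summit in both replicate lists, and 200 bp gave 28.7%. Leaving out a replicate meant using the other replicate's own list, with as many of its strongest calls taken as called as the thresholded list holds. For this reason medians of signal were on another scale, at 16.65 to 18.53 for introns, 16.82 to 18.26 for coding exons and 17.09 to 19.54 for UTRs. Called shares were then 1.32% to 2.37% over all calls and 1.55% to 3.51% in introns, and those in UTRs were 0% to 1.41%. The intron to coding exon ratio was 1.19 to 3.22, the X to autosome ratio 1.16 to 1.39 and that in introns 1.49 to 1.69, the lower values of the first and last with intervals that held 1. The cause of these shifts was not tested. The exclusion of the 3 strongest regions, the requirement that a call be a thresholded peak itself, and every alternative for the X to autosome ratio in introns were chosen after seeing the data. No paired analysis was possible because the study has 1 group. Unknown depth and a signal scale set per list limit every comparison to ranks and shares within a list, and called members are few.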

Other observations

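Genes of common name families on X held calls inside their bodies. Over all 2731 protein-coding X genes, 813 were hosts, and 15 of these hosts had a called member. Nuclear hormone receptor genes, named nhr, were hosts in 16 of 23 cases and held 45 calls, with a median signal of 29.39. Genes named unc, for uncoordinated movement, were hosts in 11 of 16 cases with 26 calls, the strongest at 53.35 in unc-84, which encodes a protein of the nuclear envelope. Homeobox genes named ceh were hosts in 6 of 18 cases with 12 calls, the strongest at 54.13 in ceh-14. Chemoreceptor genes with sr or str names were hosts in 4 of 33 cases, collagen genes named col in 2 of 27 and neuropeptide genes named nlp in 0 of 19. Of the families counted, pks-1 and mom-1, each the 1 X gene of its name, were the hosts with a called member. The names of other called hosts, such as abts, kin and ldb, were not among those counted. With so few called hosts, neither these hits nor the absence of called hosts from other families is a result. Long genes have more sequence away from start sites, and gene length was not adjusted for here.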
